A study of Mus musculus with 4 samples.

Results

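The genes described here are Il6, Il34, Saa3, Icam1 and Tnfrsf11b, 5 of the 3891 gene rows of the deposited scRNAseq table. They were chosen by name as cytokine and inflammatory genes of intestinal stromal cells, with earlier results of the same cells known. The cell groups in which they are described were read from marker genes other than these 5. All cells came from the small intestines of wild type male C57Bl/6 mice aged 8 weeks, with no treatment and no altered allele. Live cells that lacked CD45, EpCAM and CD31 and carried gp38 (podoplanin, a surface protein of fibroblasts and lymphatic endothelium) were sorted after digestion with Liberase TL. They were profiled in 2 10X libraries of 2547 and 14344 cells and on 2 Smartseq2 plates of 360 and 379 cells. How many mice stand behind a library is not given in the sources used here, and the p-values rest on 2 libraries only. They measure how far differences between groups vary between these libraries, pooled over the groups, and that variation may be technical.

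Stromal fibroblasts of the gut make signals for immune cells as well as matrix. IL-6 is a cytokine that signals through the shared receptor gp130 to STAT3, and its gene is switched on by NF-kB, C/EBP and AP-1 factors in cells that meet injury or microbial products. IL-34 is a ligand of CSF1R, the receptor on which macrophages and microglia depend. SAA3 is an acute phase serum amyloid A protein made outside the liver, ICAM-1 is the endothelial and stromal ligand of leukocyte integrins such as LFA-1, and TNFRSF11B (osteoprotegerin) is a secreted decoy receptor that binds RANKL.

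In the GENCODE annotation of GRCm38 the 5 genes are protein coding. Il6 lies on the plus strand at chr5:30013114-30019981 and Icam1 on the plus strand at chr9:21015985-21028817. Il34 lies on the minus strand at chr8:110741829-110805924, Saa3 on the minus strand at chr7:46711998-46715700 and Tnfrsf11b on the minus strand at chr15:54250619-54278484. Sequences just upstream of a start were taken for 3 of the 5 genes from RefSeq (GRCm38.p6). Il6, Saa3 and Icam1 are shown because they had an entry in the promoter set used, whereas Il34 and Tnfrsf11b had none. Capitals mark matches, on either strand, to an NF-kB-like motif (GGANNTTCC), a C/EBP-like motif (TTNNGCAA) and an AP-1-like motif (TGANTCA), which were chosen after the windows had been seen.
Il6: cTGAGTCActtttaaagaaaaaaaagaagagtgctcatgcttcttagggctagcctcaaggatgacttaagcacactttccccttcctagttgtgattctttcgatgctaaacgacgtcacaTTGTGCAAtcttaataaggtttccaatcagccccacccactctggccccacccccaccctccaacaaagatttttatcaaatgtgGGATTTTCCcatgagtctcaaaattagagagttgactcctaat
Saa3: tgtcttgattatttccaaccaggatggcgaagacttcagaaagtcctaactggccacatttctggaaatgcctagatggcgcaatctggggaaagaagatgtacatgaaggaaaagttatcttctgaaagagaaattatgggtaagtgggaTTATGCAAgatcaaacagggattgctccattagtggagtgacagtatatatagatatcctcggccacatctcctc
Icam1: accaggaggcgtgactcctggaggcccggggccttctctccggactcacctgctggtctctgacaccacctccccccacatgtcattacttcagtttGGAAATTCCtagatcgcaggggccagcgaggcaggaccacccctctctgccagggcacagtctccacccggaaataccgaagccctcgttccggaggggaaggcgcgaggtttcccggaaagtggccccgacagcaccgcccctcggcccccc
The Il6 window (chr5:30012864-30013113, plus strand, 250 bases) held all 3 motifs. The NF-kB-like match started 43 bases before the RefSeq start, the C/EBP-like match 128 bases and the AP-1-like match 249 bases before it. In the Icam1 window (chr9:21015690-21015939, plus strand, 250 bases) the NF-kB-like motif matched 153 bases before the start. In the Saa3 window (chr7:46715701-46715926, minus strand, 226 bases) the C/EBP-like motif matched 99 bases before the RefSeq start. Among 32851 mouse promoters of 250 bases, 3.59% held the NF-kB-like motif, 9.56% the C/EBP-like motif and 6.75% the AP-1-like motif. A match describes these letters and is no evidence of binding.

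Cells of the 10X libraries were placed in groups by whether a marker had a UMI, each cell taking the first gate that it met. Sox6, a transcription factor of subepithelial fibroblasts, gave 285 cells in library 1 and 2699 in library 2. Of these, 114 and 817 carried Wif1 without Adamts18, 18 and 174 carried Adamts18 (a marker of villus tip telocytes) without Wif1, 153 and 1704 carried neither, and 0 and 4 carried both and entered no comparison. Among the remaining cells, 3 or more of Inmt, Penk, Vit and Scara5 gave 331 and 1107 mesothelial-like cells, and 3 or more of Chodl, Dner, Thbs2 and Ptn gave 100 and 697 cells of the Fibin+ type. Grem1 then gave 1021 and 4837 cells (the crypt gate), Lpl gave 611 and 3699 (the villus gate), and 199 and 1305 met no gate. Median depth was 8757 UMIs per cell in library 1 (559 to 26890) and 6874 in library 2 (465 to 22450). Levels are the mean over cells of UMIs per 10000 UMIs of the cell. For detection each cell was also thinned to 2000 UMIs, and intervals are exact Clopper-Pearson 95% intervals that cover counting error only.

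Of 21 markers that the gates did not use, 16 were highest in their own group in both libraries. Of the 5 exceptions, 4 were the markers of the Grem1 gate and 1 was Gdf10, a mesothelial-like marker that was higher in the Fibin+ type (5.55 and 4.68) than in mesothelial-like cells (1.73 and 1.81). None of the 4 markers of the Grem1 gate was highest there in both libraries, since Prss23, Col14a1 and Ackr4 were higher in mesothelial-like cells, so these cells are called Grem1+ below and not crypt fibroblasts. The gates also overlapped, with Grem1 UMIs in 72.5% and 60.8% of mesothelial-like cells and Lpl UMIs in 47.8% and 55.1% of Grem1+ cells. The libraries shared 7 cell barcodes, and no doublet caller was run. Immune cells were rare inside the groups. Over the 7 groups, the Sox6+ sub-groups counted singly, the summed level of 8 immune markers ranged from 0.0287 to 0.344. At most 0.654% of the cells of a group carried 3 or more of them. In Sox6+ cells the 5 smooth muscle markers summed to 4.87 and 3.87. The largest shares of cells with 3 or more of these 5 were in the villus gate (3.27% and 1.57%), against 0.702% and 0.667% of Sox6+ cells. In the Fibin+ type they were 2% and 1.00%. Glial markers were found too, with 3 or more of 6 in 2.30% of the Sox6+ cells of library 2. These lay mostly in the cells with neither sub-group marker, 3.52% of which carried 3 or more (summed level 2.13), against 0.245% of Wif1+ and 0% of Adamts18+ cells. The part of these cells in the levels below was not tested.

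**Figure D1:**
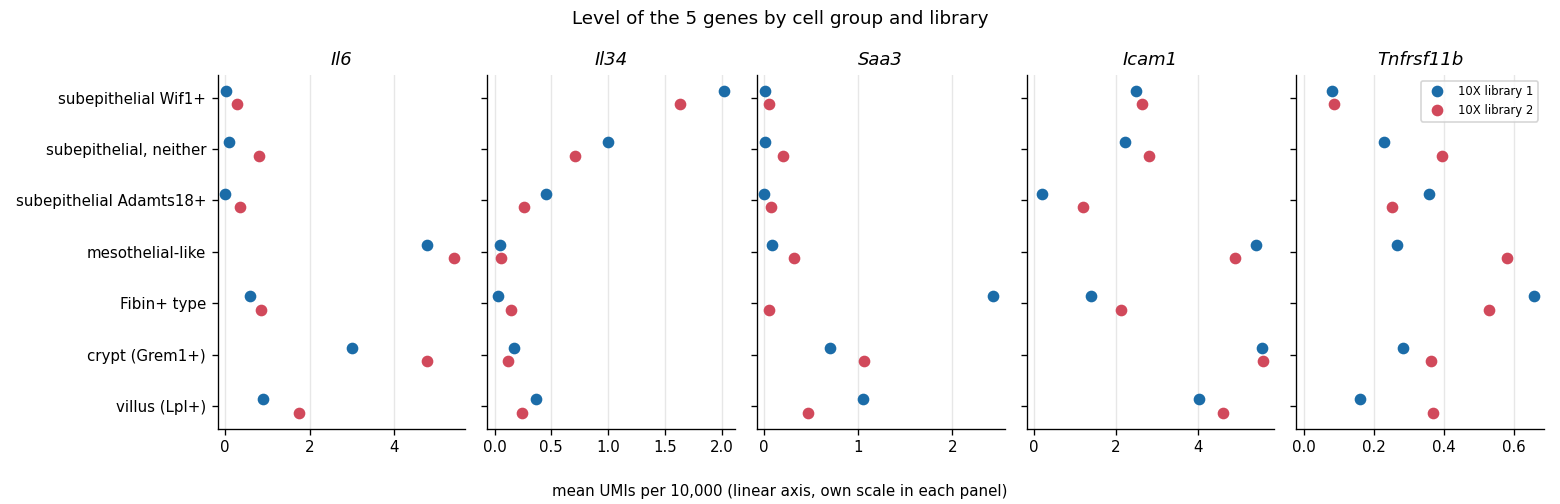
Mean level of each gene (UMIs per 10000, linear axis with its own scale in each panel) in 7 cell groups, with 1 point per 10X library. Il6 was highest in mesothelial-like cells (4.78 and 5.41), Il34 in Sox6+ Wif1+ cells (2.02 and 1.64) and Icam1 in Grem1+ cells (5.57 and 5.60), while Saa3 of the Fibin+ type differed between the libraries (2.43 and 0.0468).

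Il6 was a gene of mesothelial-like and Grem1+ cells and was low in every subepithelial group. Its level in mesothelial-like cells was 4.78 UMIs per 10000 in library 1 and 5.41 in library 2. In Grem1+ cells it was 2.99 and 4.78. In Lpl+ cells it was 0.897 and 1.75, below the Grem1+ level of both libraries, and this step was the only one between neighbours in the order that exceeded the spread over libraries. The Fibin+ type held 0.599 and 0.843, and subepithelial cells with neither Wif1 nor Adamts18 held 0.0859 and 0.793. Wif1+ cells held 0.0274 and 0.290. In Adamts18+ cells no UMI was found among the 18 cells of library 1, which allows a share of up to 18.5% of cells with a UMI (exact upper bound), and the level in library 2 was 0.361. Each group was higher in library 2 than in library 1.

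At 2000 UMIs per cell, 33.0% (28.0 to 38.4) and 37.3% (34.4 to 40.2) of mesothelial-like cells carried an Il6 UMI. The share was 24.7% and 32.8% in Grem1+ cells, 8.22% and 15.7% in Lpl+ cells, and 3% and 7.18% in the Fibin+ type. Where Il6 was found it was often abundant: over all cells, 310 of 720 positive cells in library 1 and 1803 of 4910 in library 2 held 5 or more UMIs, with up to 70 and 84 in a cell. For background, cells of other types that met no gate were read at the same depth in library 2, where 0 of 50 smooth muscle cells (exact upper bound 7.11%), 3 of 29 glial cells (10.3%, 2.19 to 27.4) and 3 of 40 immune cells (7.5%, 1.57 to 20.4) carried an Il6 UMI. The full median depths of these types were 5444, 3207 and 4204 UMIs. The shares in the Sox6+ sub-groups and the Fibin+ type, at most 7.61%, could not be told from that background, whereas those of Grem1+ and mesothelial-like cells of library 2 lay above all 3 intervals. That of Lpl+ cells of library 2 (15.7%) lay above the smooth muscle bound but within the glial and immune intervals.

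Il34 ran the other way and was a gene of subepithelial cells, above all of those with Wif1. Its level in Wif1+ cells was 2.02 in library 1 and 1.64 in library 2. Subepithelial cells with neither marker held 0.995 and 0.707, and Adamts18+ cells 0.454 and 0.257. Both steps were larger than the spread over libraries and had the same order in each. Lpl+ cells (0.367 and 0.239) did not differ from Adamts18+ cells beyond that spread, and lay above Grem1+ cells (0.171 and 0.121). The Fibin+ type (0.0337 and 0.147) and mesothelial-like cells (0.0491 and 0.0587) came last. Wif1+ cells thus held 4.45 and 6.35 times the level of Adamts18+ cells.

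At full depth 81.6% of Wif1+ cells in library 1 (73.2 to 88.2) and 70.9% in library 2 (67.6 to 74.0) carried Il34, against 44.4% (21.5 to 69.2) and 19.5% (13.9 to 26.2) of Adamts18+ cells. Thinned to 2000 UMIs the shares were 30.7% and 29.4% for Wif1+ cells and 11.1% and 5.78% for Adamts18+ cells. In library 1 the intervals of these groups overlapped at that depth, since only 18 Adamts18+ cells were captured. Il34 was a low count gene throughout, with 63.0% and 67.1% of its positive cells at a single UMI. No Il34 UMI was found in the 49 immune cells or the 47 glial cells of library 2 that met no gate (exact upper bounds of 7.25% and 7.55%, median depths of 4204 and 3207 UMIs). The shares of mesothelial-like cells (4.83% and 5.42%) lay below these bounds and are read as background, at median depths of 10011 and 8067 UMIs.

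Icam1 was the most widely detected of the 5 genes, with a UMI in 73.3% and 73.6% of all cells, and followed Il6 in outline. Its level was 5.57 and 5.60 in Grem1+ cells and 5.41 and 4.91 in mesothelial-like cells. It was 4.02 and 4.62 in Lpl+ cells. Wif1+ cells held 2.50 and 2.65, subepithelial cells with neither marker 2.22 and 2.81, and the Fibin+ type 1.4 and 2.13. Adamts18+ cells came last at 0.208 and 1.20. Each step of this order exceeded the spread over libraries and, between neighbours, held in both, except that Wif1+ cells and cells with neither marker did not differ. The Adamts18+ value of library 1 rests on 4 UMIs in 2 of 18 cells.

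Thinned to 2000 UMIs, Icam1 was found in 57.4% and 57.5% of Grem1+ cells and in 58.1% and 57.6% of mesothelial-like cells. Lpl+ cells followed with 42.8% and 47.6%. The Fibin+ type gave 19.0% and 30.4%, and Adamts18+ cells 0% (exact upper bound 18.5%) and 20.2%. ICAM-1 is also a protein of leukocytes and endothelium, and cell types without it were too few here to give a background share. At this depth Icam1 was present in 11 of 40 immune cells (27.5%, 14.6 to 43.9) and 10 of 50 smooth muscle cells (20%, 10.03 to 33.7) of library 2 that met no gate. The shares of Grem1+ and mesothelial-like cells lay above both intervals, and those of the Fibin+ type and of subepithelial cells lay within or below that of the immune cells.

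Tnfrsf11b was low in all groups and overlapped between most of them. Its level was 0.656 and 0.528 in the Fibin+ type, 0.268 and 0.579 in mesothelial-like cells and 0.283 and 0.363 in Grem1+ cells. Subepithelial cells with neither marker (0.229 and 0.393), Adamts18+ cells (0.359 and 0.253) and Lpl+ cells (0.160 and 0.369) overlapped with these. Wif1+ cells were the exception at 0.0810 and 0.0874, below every other group in both libraries. Positive cells were 14.4% and 17.2% of the libraries and 74.1% and 72.5% of them held a single UMI. Among smooth muscle cells of library 2 that met no gate, 16 of 57 carried Tnfrsf11b (28.1%, 17.0 to 41.5, level 0.846), whereas 0 of 49 immune cells did (exact upper bound 7.25%). The shares of Wif1+ cells, 8.77% and 7.10% at full depth, lay near that bound, at median depths of 11976 and 9682 UMIs against 4204 in the immune cells. At 2000 UMIs per cell the immune upper bound was 8.81%. Wif1+ cells (1.75% and 1.97%), Grem1+ cells (4.95% and 7.19%) and Lpl+ cells (2.18% and 5.84%) all lay below it. At that depth none of these groups could be told from that background.

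**Figure D2:**
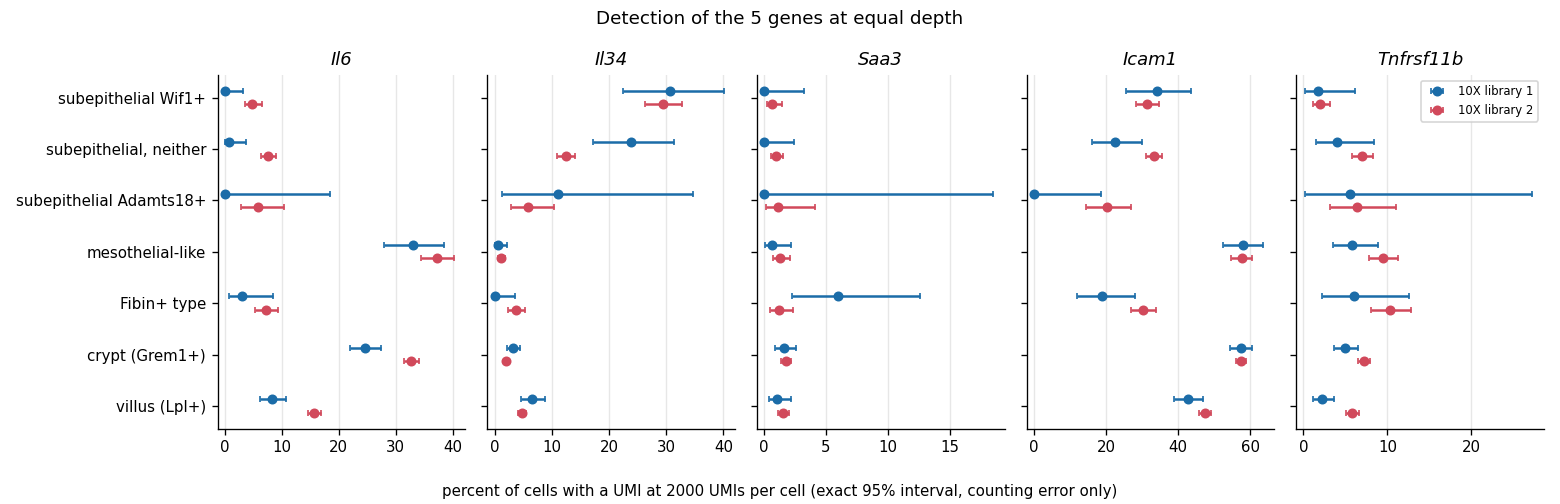
Percent of cells with a UMI of each gene after every cell was thinned to 2000 UMIs, per cell group and 10X library, with bars for the exact 95% interval (counting error only). Il6 was found in 33.0% and 37.3% of mesothelial-like cells and Il34 in 30.7% and 29.4% of Sox6+ Wif1+ cells, and the widest bars belong to the 18 Adamts18+ cells of library 1.

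Grem1+ cells were compared with Lpl+ cells to ask how the crypt and villus gates differ. Differences are given as the mean natural log value (ln of 1 + UMIs per 10000) of the group in a library, averaged over the 2 libraries, with the SD over libraries. Of the 5 genes, 2 were called in limma with Benjamini-Hochberg adjustment, beside 26.5% of the 1469 genes tested. Il6 was higher in Grem1+ cells by 0.476 ± 0.0465 (limma, Benjamini-Hochberg adjusted p = 9.02e-05) and Icam1 by 0.345 ± 0.105 (limma, adjusted p = 0.0180). Il34 differed by -0.0778 ± 0.0331 and Tnfrsf11b by 0.0401 ± 0.0312, with limma adjusted p of 0.4 and 0.627. Saa3 did not reach the filter of a UMI in 5% of the cells of either side in this or any other comparison. Tested without that filter, it was called in none of the 5 comparisons (limma, Benjamini-Hochberg adjusted p of 0.127 to 1). The groups were gated on other genes of the same cells and the members were selected with earlier results known, so these p-values describe the groups and are no independent evidence.

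The 2 groups also differed in the summed level of 19 immediate early and heat shock genes, which cell dissociation is known to induce. In Grem1+ cells 63.8% and 67.0% of cells lay above the library median of that sum, against 34.4% and 42.3% of Lpl+ cells. Among the cells below the median, the Il6 difference was 0.0605 and was no longer called (limma, Benjamini-Hochberg adjusted p = 0.735). The Icam1 difference was 0.206 there (limma, adjusted p = 0.0878), and it also missed the threshold without the library block, without the filter, after thinning and on the log2 scale (limma, adjusted p = 0.0674, 0.0772, 0.0699 and 0.617). On that log2 scale of group means Il6 just missed the threshold, with a difference of 1.52 (limma, adjusted p = 0.0513).

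Related genes moved beside them. Of 12 tested NF-kB targets and feedback genes 7 were higher in Grem1+ cells and none was lower (median 0.184, against -0.00320 over all genes tested), among them the mRNA decay factor Zfp36 (0.760), the NF-kB inhibitors Nfkbiz (0.609) and Nfkbia (0.458) and Ier3 (0.446). Ier3 is counted both there and among the 19 stress genes, here and in the later comparisons. Of 5 acute phase genes 3 were higher: complement C3 (1.43), Tnfaip6 (0.309) and the metalloreductase Steap4 (0.180). Of 5 IL-6 family genes only Socs3, the feedback inhibitor of gp130 signalling, was called (0.363), a share of 20% that lies below the 26.5% over all genes. Chemokines split, with Ccl2 (0.224) among 2 higher genes and Ccl11 (-0.504), Cxcl14 (-0.337) and Cxcl5 (-0.118) among 4 lower ones of 11. Both tested adhesion genes were lower, Vcam1 by -0.198 and Cd44 by -0.177, whereas Icam1 was higher. Of the 19 stress genes 16 were higher, with Egr1 at 0.855.

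Mesothelial-like cells were set against the mean of the Fibin+, Grem1+ and Lpl+ cells. Here 2 of the 5 genes were called, beside 46.0% of 1566 genes tested. Il6 was higher by 0.581 ± 0.0591 (limma, Benjamini-Hochberg adjusted p = 7.73e-07) and stayed called in all 8 alternatives tested with limma, with adjusted p up to 0.00633. The difference was 0.375 among cells below the stress median (0.511 and 0.239 in the libraries) and 0.379 with gates read from thinned cells. Icam1 was higher by 0.363 ± 0.143 (limma, adjusted p = 0.00235), but not when only cells that met exactly 1 gate were kept (0.0509, limma adjusted p = 0.726), nor on the log2 scale or with gates read from thinned cells (limma, adjusted p = 0.222 and 0.0723). Il34 (-0.0647 ± 0.0143) and Tnfrsf11b (0.00923 ± 0.0795) were not called, with limma adjusted p of 0.281 and 0.853, but Il34 was called lower on the log2 scale (-0.76, limma adjusted p = 0.0316). Only 5.44% and 5.42% of mesothelial-like cells met no other gate, and under that setting the highest Il6 level of both libraries was in Grem1+ cells (3.74 and 6.54).

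In the IL-6 family list 4 of 5 genes were higher (median 0.213, against -0.00112 over all genes tested): Socs3 (0.713), the C/EBP factors Cebpd (0.553) and Cebpb (0.213) and the cytokine Lif (0.0542, from 0.0894 in library 1 and 0.0190 in library 2). All 5 tested acute phase genes were higher, led by C3 (1.70), Tnfaip6 (0.530), ceruloplasmin (Cp, 0.390) and the alarmin Il33 (0.316). Of 12 NF-kB genes 9 were higher (75%, beside 46.0% called over all genes tested), with Zfp36 at 1.14 and Nfkbia at 0.601. Of 11 chemokines 6 were higher and 2 lower (72.7% called, median 0.0871), the neutrophil chemokine Cxcl1 (0.484) and the monocyte chemokines Ccl2 (0.286) and Ccl7 (0.220) among the higher. Stress genes were higher in 17 of 19 cases, and 77.0% and 73.8% of mesothelial-like cells lay above the median of the stress list. Of 5 acute phase, 12 NF-kB and 19 stress genes none was lower.

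In the Fibin+ type Il6 and Icam1 were low. This comparison and the previous one share their reference groups and each holds the other's cells, so their values are not independent. Compared with the mean of mesothelial-like, Grem1+ and Lpl+ cells, 3 of the 5 genes were called, beside 66.8% of 1678 genes tested. Il6 was lower by -0.558 ± 0.0520 (limma, Benjamini-Hochberg adjusted p = 2.94e-07) and Icam1 by -0.732 ± 0.142 (limma, adjusted p = 1.04e-05). Among cells below the stress median these differences were smaller, -0.197 for Il6 and -0.391 for Icam1, and both were still called. Tnfrsf11b was higher by 0.128 ± 0.115 (limma, adjusted p = 0.00965), with 0.209 in library 1 and 0.0472 in library 2. That call was lost when cells were thinned to 2000 UMIs (0.0459, limma adjusted p = 0.0639), with gates read from thinned cells and with cells of exactly 1 gate (limma, adjusted p = 0.0529 and 0.132). Il34 differed by -0.0430 ± 0.0703 (limma, adjusted p = 0.429).

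All 5 tested IL-6 family genes were lower in the Fibin+ type, led by Socs3 (-0.870) and Cebpd (-0.697). Of 12 chemokines 11 were lower and 1 was higher, Ccl11 (eotaxin) by -0.930 and Ccl2 by -0.405 among the lower, with a list median of -0.180 against 0.00225 over all genes tested. Of 12 NF-kB genes 10 were lower and 1 higher (91.7% called, beside 66.8% over all genes tested). C3 was lower by -2.02 and Tnfaip6 by -0.732, among 4 lower and 2 higher of 6 acute phase genes. Vcam1 (-0.517) and Cd44 (-0.121) were both lower. Of the stress genes 18 were lower and 1 was higher, and 13% and 18.9% of the cells lay above the median of the stress list.

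Subepithelial Sox6+ cells were compared, as the mean of their 3 sub-groups, with the mean of the other 4 groups. Here 4 of the 5 genes were called, beside 77.8% of 1707 genes tested. Il34 was higher by 0.427 ± 0.104 (limma, Benjamini-Hochberg adjusted p = 2.62e-07). Il6 was lower by -0.498 ± 0.0221 (limma, adjusted p = 1.43e-08), Icam1 by -0.577 ± 0.0858 (limma, adjusted p = 1.41e-06) and Tnfrsf11b by -0.0724 ± 0.0250 (limma, adjusted p = 0.0177). These 4 calls held in all 8 alternatives tested, but among cells below the median of the stress list the differences were -0.159 for Il6 and -0.323 for Icam1. With gates read from thinned cells Icam1 was lower by -0.348, and with cells of exactly 1 gate Il34 was higher by 0.667. Tnfrsf11b ranged with the setting too, from -0.0404 in thinned cells to -0.155 in cells of exactly 1 gate. With gates read from thinned cells and with cells of exactly 1 gate, library 1 held only 4 and 3 Adamts18+ cells. That sub-group was then left out, so these values are of other sub-groups than the main fit and are not directly comparable with it. Syndecan-1 (Sdc1), which is known to bind IL-34, was the other tested gene of the CSF1R list and was also higher (0.255, from 0.348 in library 1 and 0.163 in library 2).

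All 5 tested acute phase genes were lower, with C3 at -1.85 and Il33 at -0.513, and so were 9 of 12 NF-kB genes, with Zfp36 at -0.908 and Nfkbiz at -0.793, while 1 was higher. In the IL-6 family list Cebpd (-0.479, from -0.683 and -0.275 in the libraries) and Socs3 (-0.303) were among 4 lower genes and the receptor Lifr (0.181) among 2 higher ones. Chemokines were lower in 7 of 12 cases, including Ccl2 (-0.312) and the interferon-induced Cxcl10 (-0.249), but 4 were higher, among them Cxcl14 and Ccl11. These 2 differed in size between the libraries, Cxcl14 (0.423) with 0.566 and 0.280 and Ccl11 (0.240) with 0.0751 and 0.404. Of 3 tested adhesion genes Cd44 (0.189) and Itga4 (0.0424) were higher and Vcam1 (-0.165) was lower. Of the 19 stress genes 18 were lower, and 17.9% and 25.8% of Sox6+ cells lay above the median of the stress list. The list medians were -0.439 for acute phase genes, -0.193 for NF-kB genes and -0.0306 for chemokines, against 0.0191 over all genes tested. Of these lists 100%, 83.3% and 91.7% were called, beside 77.8% of all genes tested, so the NF-kB share lies near that of all genes.

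Within the subepithelial cells, Adamts18+ cells were compared with Wif1+ cells. Of the 5 genes 2 were called, beside 35.4% of 1709 genes tested. Il34 was lower in Adamts18+ cells by -0.631 ± 0.00191 (limma, Benjamini-Hochberg adjusted p = 9.25e-06), with almost the same difference in each library (-0.633 and -0.630). Icam1 was lower by -0.559 ± 0.199 (limma, adjusted p = 0.000841), and by -0.37 among cells below the stress median. Tnfrsf11b was 0.109 ± 0.0306 higher without passing the threshold (limma, adjusted p = 0.0803), and it passed on the log2 scale and after thinning (limma, adjusted p = 0.0178 and 0.0466). Il6 differed by 0.00330 ± 0.0280 (limma, adjusted p = 0.969). Library 1 contributed 18 Adamts18+ cells, of which 0% lay above the stress median, against 22.8% of its Wif1+ cells; in library 2 the shares were 10.9% and 22.6%.

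Ccl11 was lower in Adamts18+ cells by -0.962 and Cxcl14 by -0.686, among 5 lower and no higher chemokine genes of 11 tested (45.5%, median -0.0816, against -0.00226 over all genes tested). Of 5 IL-6 family genes Lifr (-0.375) and Socs3 (-0.378) were lower (40%, near the 35.4% called over all genes). Of 12 NF-kB genes 3 were lower (25%, below the 35.4% called over all genes), among them Gadd45b (-0.513) and Zfp36 (-0.436, from -0.644 and -0.229 in the libraries). Of 7 acute phase genes 2 were called (28.6%, also below that share), the pentraxin Ptx3 (0.0910) and the IL-33 receptor Il1rl1 (0.0559, from 0.0333 and 0.0785), both higher. Of 3 tested adhesion genes Cd44 (0.215) and Itga4 (0.0613, from 0.0228 and 0.0999) were higher and Vcam1 (-0.198) was lower. Of the stress genes 8 were lower and 1 was higher.

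Members just inside and outside the count gates are given once, without a test. Cells with exactly 3 mesothelial-like markers held 5.70 and 5.70 Il6 UMIs per 10000, and cells with 2 held 4.51 and 6.14. Around the Fibin+ gate the step was steeper: Il6 was 2.60 and 1.67 in cells with exactly 3 markers and 4.19 and 3.46 in cells with 2. In library 1 the 5 Il6-positive cells of the Fibin+ type were all among its 23 cells with exactly 3 markers, so its level there rests on cells at the limit of the gate. Icam1 was 2.25 and 3.30 against 5.73 and 4.84 there.

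The relation to the stress list was then described within each group, cell by cell, by splitting each library at the median of the summed list. In Grem1+ cells above the median the Il6 level was 4.39 in library 1 and 6.90 in library 2, and below it 0.543 and 0.475. In Lpl+ cells it was 2.21 and 3.65 above and 0.211 and 0.357 below. These are ratios of 8.08 and 14.5 for Grem1+ cells and 10.5 and 10.2 for Lpl+ cells. Mesothelial-like cells of library 1 stood apart in mean level, with 4.90 above the median and 4.37 in the 76 cells at or below it. The 75 cells strictly below the median held 4.29. Library 2 gave 6.74 above and 1.64 below. Detection differed in both libraries: after thinning, 36.6% of these cells above the median carried Il6 in library 1, against 20.5% of the others. In library 2 the shares were 45.3% and 14.6%. Among cells below the median, mesothelial-like cells still held the highest Il6 level of both libraries.

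Icam1 was also higher in cells above the median, in a narrower range. Its level in Grem1+ cells was 7.04 and 7.05 above and 2.99 and 2.65 below, and in Lpl+ cells 7.75 and 7.94 above and 2.07 and 2.19 below. Above the median, Lpl+ cells thus held slightly more Icam1 than Grem1+ cells in both libraries. Il34 went the other way in Grem1+ cells, with 0.124 and 0.0813 above and 0.255 and 0.202 below, and in Lpl+ cells with 0.313 and 0.159 above and 0.395 and 0.298 below. Tnfrsf11b was level in Grem1+ cells, at 0.293 and 0.361 above and 0.265 and 0.367 below. In mesothelial-like cells it was lower above the median, at 0.238 and 0.501 against 0.368 and 0.799 below. Lpl+ cells gave 0.161 and 0.278 above and 0.159 and 0.435 below. Cells above the median were somewhat deeper, with medians of 9192 and 8096 UMIs in Grem1+ cells of library 1 and 7291.5 and 6629 in library 2. Whether the stress genes account for any of these levels was not tested.

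**Figure D3:**
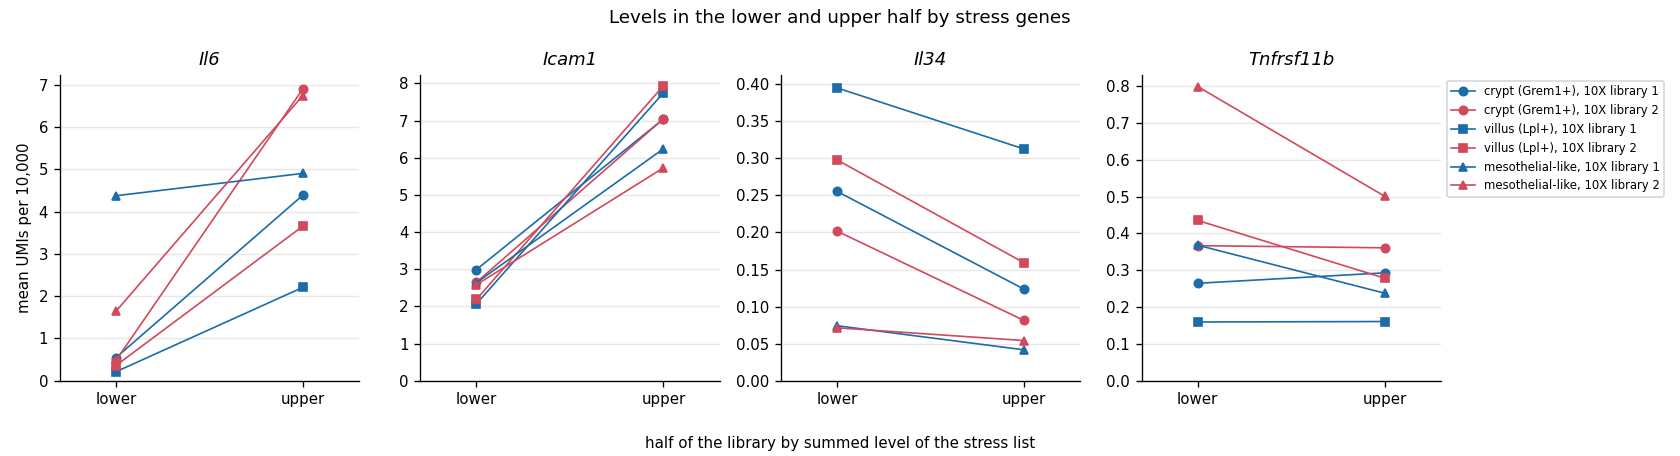
Mean level (UMIs per 10000, linear axes) of 4 genes in cells below and above the library median of the summed stress list, for Grem1+, Lpl+ and mesothelial-like cells, with 1 line per group and 10X library. Il6 stood at 0.543 and 0.475 below and 4.39 and 6.90 above the median in Grem1+ cells, Icam1 was higher above the median in all 6 lines, and Il34 was lower above it in all 6.

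Co-detection was read at 2000 UMIs per cell, where the share of cells with both genes was set beside the product of the single shares. Il6 and Icam1 were found together in 181 of 1010 Grem1+ cells of library 1 and 1066 of 4796 of library 2, which was 1.27 and 1.18 times the product. In Lpl+ cells the ratio was 1.53 and 1.38, and in mesothelial-like cells 1.13 and 1.11. Among Grem1+ cells 72.7% and 67.9% of those with Il6 also carried Icam1, against 52.4% and 52.5% of those without Il6. The pair was thus found together more often than the product in all 3 groups and both libraries.

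Il6 and Il34 were rarely found in the same cell. In Grem1+ cells 2 cells of library 1 and 18 of library 2 carried both, where the product gave 7.89 and 32.4 cells (ratios of 0.254 and 0.555). The ratio was 0.312 and 0.663 in Lpl+ cells and 0.428 in the Sox6+ cells of library 2, where 13 cells carried both. Icam1 and Tnfrsf11b sat close to the product, at 1.01 and 0.927 in Grem1+ cells and 1.08 and 0.976 in Lpl+ cells. At full depth 8 of the 10 pairs exceeded the product in Grem1+ cells of both libraries, and after thinning 5 did. The cells of a pair share depth and library, and no p is given.

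**Figure D4:**
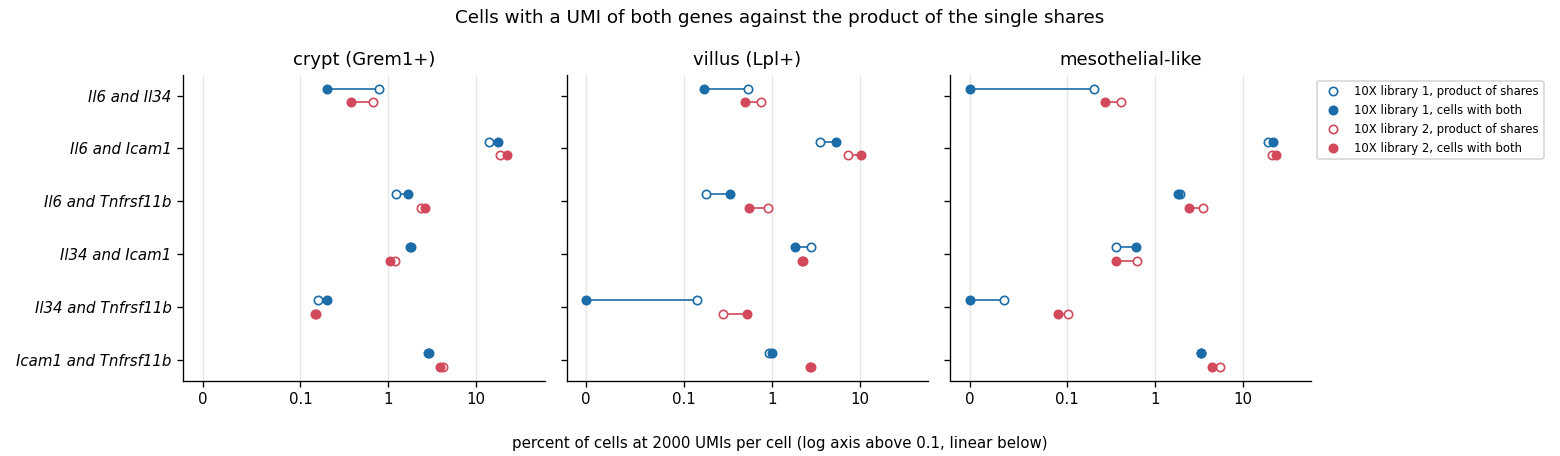
Percent of cells with a UMI of both genes (filled) and the product of the single shares (open) at 2000 UMIs per cell, for 6 pairs in Grem1+, Lpl+ and mesothelial-like cells of both 10X libraries (log axis above 0.1, linear below). Filled points lie right of open ones for Il6 and Icam1 in every panel, and left of them for Il6 and Il34.

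Saa3 differed from the other 4 genes in how its UMIs were spread. It was found in 51 cells of library 1 and 407 of library 2 (2.0% and 2.84%), and most of its UMIs sat in a few of these. Cells with 5 or more UMIs, a limit set after the values had been seen, numbered 20 (0.785%, 0.480 to 1.21) and 99 (0.690%, 0.561 to 0.840) and held 97.4% and 95.6% of all Saa3 UMIs. The highest cell held 275 UMIs in library 1 and 1255 in library 2. At the other end 24 and 276 cells carried a single UMI. The 1% of cells with most UMIs held 98.3% and 96.7% of Saa3, but 20.01% and 18.87% of Il6 and 6.61% and 7.39% of Icam1.

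The Saa3 level of a group thus rested on a few cells. Levels were 0.699 and 1.06 in Grem1+ cells, 1.05 and 0.462 in Lpl+ cells, 0.0781 and 0.315 in mesothelial-like cells and 2.43 and 0.0468 in the Fibin+ type. In the Fibin+ type of library 1, 4 cells were above the limit and a single cell gave 170 of 209 UMIs. Without the cells above the limit the levels were between 0.0155 and 0.0587 in these groups of library 1 and between 0.0317 and 0.0426 in library 2. Of the cells above the limit, 10 and 52 were Grem1+, 5 and 27 Lpl+, 1 and 6 mesothelial-like, 4 and 1 of the Fibin+ type and 0 and 9 Sox6+, and 0 and 4 met no gate. The share was 0.979% and 1.08% of Grem1+ cells and 0.818% and 0.730% of Lpl+ cells.

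Within the Grem1+ and Lpl+ cells, the 15 and 79 cells above the limit were described beside the 1600 and 8267 cells without Saa3. They held more chemokine mRNA. The neutrophil chemokine Cxcl5 was at 33.6 against 0.296 UMIs per 10000 in library 1 and at 14.1 against 0.561 in library 2. The interferon-induced Cxcl9 was at 26.9 against 0.386 and at 17.2 against 0.528, and Cxcl2 at 6.23 against 0.0960 and at 2.76 against 0.0916. Ccl2 was at 22.7 against 2.27 and at 15.2 against 3.02. Of 14 chemokines in the list 13 were higher in both libraries, with median ratios of 4.94 and 4.32, whereas 13.6% of all genes of the table were. Among genes with a UMI in at least 5% of the cells without Saa3, all 11 such chemokines were higher in both libraries, beside 25.5% of the 1410 genes.

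Il6 was not among the genes that went with Saa3. Its level was 2.14 against 2.18 in library 1 and 2.98 against 3.49 in library 2. Icam1 was at 8.45 against 4.98 and at 5.87 against 5.16. In the acute phase list the median ratio was 0.933 in library 1, below 1, and 2.61 in library 2. In both libraries 5 of 11 genes were higher (45.5%, beside 13.6% of all genes of the table), among them C3 (47.8 against 24.8 and 66.3 against 25.4), Cp (6.24 against 2.03 and 3.73 against 1.32) and Steap4 (2.45 against 0.303 and 2.24 against 0.485). The others, Saa1 and Lcn2, were each found in only 1 of the 15 cells above the limit in library 1. Genes picked after their values were seen included the chitinase-like Chil1 (2.41 against 0.121 and 4.33 against 0.128), the serpin Serpina3f (3.13 against 0.0250 and 1.87 against 0.0683), the mitochondrial superoxide dismutase Sod2 (5.40 against 0.536 and 3.93 against 0.790) and the metalloproteinase inhibitor Timp1 (3.15 against 0.425 and 1.94 against 0.327).

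Pdgfra, a growth factor receptor of gut fibroblasts, was found in 13 of 15 and 73 of 79 of the cells above the limit. No UMI of Ptprc (CD45), Epcam, Krt19, Msln or Upk3b was found in them (exact upper bounds of 21.8% and 4.56%). They were deeper than the cells without Saa3, with medians of 11135 against 8334.5 UMIs in library 1 and 8755 against 6537 in library 2. After thinning to 2000 UMIs Cxcl9 was still found in 53.3% and 41.8% of them, against 3.81% and 3.48% of the cells without Saa3. Their summed stress level was 188 against 184 in library 1 and 172 against 198 in library 2, so it did not differ in 1 direction. The part of depth or of doublets in this pattern was not tested.

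**Figure D5:**
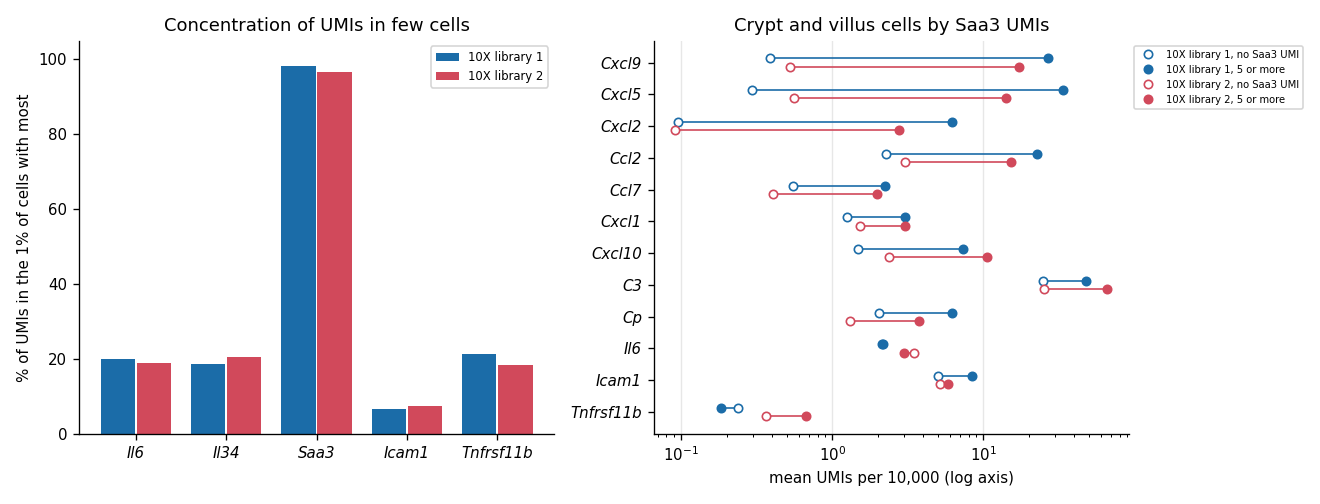
Left, percent of all UMIs of a gene that lie in the 1% of cells with most UMIs, per 10X library. Right, mean level (UMIs per 10000, log axis) of 12 genes in Grem1+ and Lpl+ cells with no Saa3 UMI (open) and with 5 or more (filled): Cxcl9 stood at 0.386 and 26.9 in library 1 and at 0.528 and 17.2 in library 2, Il6 at 2.18 and 2.14 in library 1.

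The genes whose levels were most like those of the members over the 7 groups were ranked by the lower Pearson's r of the 2 libraries, on log2(level + 0.1), among 1982 genes. For Il6 they were the imprinted gene Peg10 (r of 0.995 and 0.990), the small Maf factor Maff (0.992 and 0.987) and Cpxm1 (0.986 and 0.996). Maff stood at 0.864 and 0.983 in mesothelial-like cells and at 0.0998 and 0.245 in Wif1+ cells. For Il34 they were the cyclin-dependent kinase inhibitor Cdkn2c (0.981 and 0.994), the actin-associated Synpo (0.987 and 0.979) and the condensin subunit Smc4 (0.966 and 0.989). Cdkn2c stood at 2.07 and 1.22 in Wif1+ cells, 0.421 and 0.279 in Adamts18+ cells and 0.103 and 0.124 in mesothelial-like cells. For Icam1 they were the noncoding RNA Meg3 (0.976 and 0.975), the AP-1 factor Junb (0.992 and 0.960) and the ectonucleotidase Entpd2 (0.984 and 0.959).

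Likeness was weaker for the other 2 genes. For Tnfrsf11b the nearest were the transferrin receptor Tfrc (0.821 and 0.855), the chloride transporter Clcn5 (0.841 and 0.808) and the matrix protein Spon2 (0.766 and 0.888), the last at 19.4 and 17.4 in the Fibin+ type and 0.157 and 0.942 in Wif1+ cells. For Saa3, which missed the filter, Gbp8 was nearest (0.787 and 0.871). Among the members themselves Il34 was opposed to Il6 (-0.757 and -0.747) and to Tnfrsf11b (-0.757 and -0.823), and Icam1 went with Il6 (0.739 and 0.845). Over the groups Il6 and Saa3 gave 0.506 and 0.834, although the Saa3 levels rested on a few cells. With 7 groups that share a library, these values describe the order of the groups only.

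Grem1+ cells also differed by Ackr4, a scavenging chemokine receptor. With Ackr4, 52.2% of 582 and 59.2% of 2529 cells carried Il6 (level 4.2 and 6.21), and without it 18.9% of 439 and 38.6% of 2308 cells did (1.4 and 3.21), at median depths of 9591.5 and 7667 against 7523 and 6386.5 UMIs. On the Smartseq2 plates, whose values had been corrected by integration and were not gated, the mean corrected natural log value of Il6 was 0.417 ± 0.647 (SD over 360 cells) and 0.594 ± 0.745 (SD over 379 cells). Icam1 was at 0.934 ± 0.917 and 1.38 ± 0.823, Il34 at 0.112 ± 0.374 and 0.183 ± 0.425, Tnfrsf11b at 0.121 ± 0.321 and 0.202 ± 0.496 and Saa3 at 0.0300 ± 0.0419 and 0.0412 ± 0.125. The difference between the plates was not tested.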

How the data were processed

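Stromal cells of mouse small intestine were measured by 10X (2 libraries) and Smartseq2 (2 plates). Per the labels, the authors processed 10X reads with Cell Ranger 3.1.0 on mm10 and Smartseq2 reads with Trim Galore 0.4.4, TopHat2 2.1.1, Bowtie2 2.2.6.0 and featureCounts (Subread 1.4.6-p5). In Seurat they filtered cells, scaled each cell to 10000 and integrated the libraries. The deposited 10X values are natural log values of 1 + UMIs per 10000, and the Smartseq2 values are corrected values on a natural log scale. Values of the 10X cells came out as whole UMIs in 100% of cases (tolerance 0.01 UMI). Smartseq2 values held 25.1% and 26.1% values below 0 and entered no test. The table gave 3891 genes, and 1 row that ended early was left out.

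The members, lists and tests were chosen with earlier results of these data known. Mean natural log values per library and group were fitted in limma 3.58.1 (R 4.3.3) over 7 groups with the library as a block, a mean trend and Benjamini-Hochberg adjustment (threshold 0.05). Genes with a UMI in 5% of the cells of either side were tested, without the 13 genes of the gates. The library is the replicate, and each library gave every group, so the numbers pair the groups. Named were the 5 members, the gate markers, for each member the 3 genes most alike in pattern, and at most 4 called genes per list and comparison by size. Cells were thinned with numpy 2.4.6 (seed 11). The fit was tested on simulated data. Alternatives were another scale, filter, block, trend, depth, gate and stress setting, and each library alone.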

Additional observations from a re-analysis of the deposited data

How the results depend on the processing

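Over 20 member differences and 150 alternatives tested with limma, 133 kept direction and side of the threshold, 13 lost the call, 3 gained it and 1 reversed. The reversal was Il6 in Adamts18+ against Wif1+ cells, at -0.0527 on the log2 scale (adjusted p = 0.953). With single libraries, which allow no test, 3 uncalled values changed sign: that Il6 difference (-0.0165 without library 2 and 0.0231 without library 1), Tnfrsf11b of mesothelial-like cells (-0.0470 and 0.0655) and Il34 of the Fibin+ type (-0.0927 and 0.00676). Thinning to 2000 UMIs left fewer genes to test and gave 255 calls of 897 for Grem1+ against Lpl+ cells, 446 of 926 for mesothelial-like cells, 711 of 1042 for the Fibin+ type, 804 of 1050 for Sox6+ cells and 387 of 991 for Adamts18+ cells. Cells below the stress median gave 163 calls of 1478 for Grem1+ against Lpl+ cells, where the cause was not tested. Pairs above the product in Grem1+ cells went from 8 to 5 after thinning. Without the replicate block the counts were 303, 617, 1068, 1267 and 509, each within 1.5 times, and the pairing changed 1 member call, Icam1 in Grem1+ against Lpl+ cells. The Adamts18+ comparison could not be made with gates read from thinned cells or with cells of exactly 1 gate, since fewer than 10 cells were left in library 1. In these settings the Sox6+ comparison was made without the Adamts18+ sub-group. The highest group changed for Icam1 in library 1 after thinning (mesothelial-like, 5.75) and for Il6 in library 2 with gates read from thinned cells (Grem1+, 5.33). With cells of exactly 1 gate it changed for Il6 in both libraries (Grem1+, 3.74 and 6.54) and for Saa3 in library 1 (Lpl+, 1.05). Saa3 was tested only without the filter on low values, where its adjusted p was 0.127 to 1 over the 5 comparisons. The number of cells limits the Adamts18+ group of library 1, which held 18.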
